A study of Gallus gallus with 15 samples.

Results

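The SLC25 genes encode the carriers of the mitochondrial inner membrane, and 35 of them were followed here in the breast muscle of Korat chickens (KRC), a slow-growing Thai meat breed. Members were all genes of the deposited table whose name is SLC25A and a number and that had at least 10 counts in 5 or more of the 15 birds, which took in 35 of the 38 genes so named and 35 of the 17475 genes in the table. The 3 genes so named that did not reach this minimum were SLC25A21 with 55 counts over all birds, SLC25A48 with 18 and SLC25A40 with 1. All birds were females of 10 weeks and received their diet from week 4. Group A (birds A1 to A5) received the diet without supplement, group B (B1 to B5) the diet with 1% β-alanine, and group C (C1 to C5) the diet with 0.5% L-histidine, with 1 bird sequenced from each of 5 cages per group. β-Alanine and L-histidine are the building blocks of carnosine, a dipeptide of muscle, and the study asked which transcripts differed between each supplemented group and group A.

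Carriers of this family move metabolites across the inner membrane, which is otherwise closed to charged molecules, and most work by exchange, letting one metabolite out for each one let in. In muscle the ADP/ATP carrier brings ADP to ATP synthase and exports the ATP made there, the phosphate carrier supplies phosphate for the same reaction, and the oxoglutarate/malate and aspartate/glutamate carriers form the malate-aspartate shuttle, which passes reducing power from glycolysis into mitochondria. A smaller branch, the ATP-Mg/phosphate carriers, carries calcium-binding EF-hands on its cytosolic side and alters the total amount of adenine nucleotide inside the mitochondrion when cytosolic calcium rises. Other members carry amino acids, citrate, coenzyme A, folate, iron, glutathione and acylcarnitines.

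Between 10620229 and 15381547 fragments were counted per bird, and all levels below are normalized FPKM, that is, fragments per kilobase of exonic length, set relative to the library size after scaling by relative log expression, so that they can be set side by side between genes. Of 9 listed fast muscle genes, 6 were found by symbol and all 6 were tested. Their summed level was 103460 to 164093 in group A, 88698 to 117184 in group B and 70043 to 126130 in group C. The highest sum was that of A4, and the other control birds lay at 103460 to 114299. At an unadjusted p under 0.05 in the edgeR test described below, 4 of the 6 were lower in group C, against 11.2% of all genes tested. None differed in group B, and the median log2 fold changes were −0.32 in group B and −0.54 in group C. In whole muscle a lower level can come from fewer cells of a type or from less RNA per cell, and these cannot be told apart. Control birds A3 and A4 stood apart, with the highest CS (citrate synthase) levels of the 15 birds (209 and 241 against 80.7 to 133). Their transcripts of longer genes lay below and those of shorter genes above the mean of all birds. The Spearman correlation of the log2 deviation with exonic length was −0.50 and −0.38, against −0.18 to 0.34 in the others. In the paper's read statistics A3 and A4 had the lowest mapping rates and the highest GC contents of the 15 libraries. A4 also had the smallest library and a scaling factor of 0.678. Bird C2 held some slow fibre transcripts that were nearly absent elsewhere. TNNT1 (slow troponin T) was at 1565 and MYL3 (slow myosin light chain) at 1741, against at most 22.8 and 15.0 in any other bird. C2 also had the highest summed level of the 15 birds for listed immune cell markers, 568 against at most 373 elsewhere. The same held for smooth muscle and pericyte markers, at 341 against at most 234.

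No carrier passed the test in either supplemented group when all 15 birds were fitted together (edgeR quasi-likelihood test, with a call made at 1.5-fold or more and a Benjamini-Hochberg adjusted p under 0.05), and neither did any other of the 11858 genes tested, a background of 0%. Of the 35 carriers, 34 passed the filter on low values, a mean deposited FPKM of at least 0.2, and SLC25A47 did not. At an unadjusted p under 0.05, 7 of 34 carriers differed between groups B and A, against 10.6% of all genes tested, and 11 of 34 differed between groups C and A, against 19.2%. The 7 in group B were SLC25A1 with the higher level (background 4.47%) and SLC25A3, SLC25A11, SLC25A14, SLC25A25, SLC25A26 and SLC25A39 with the lower (6.17%). The 11 in group C were SLC25A1, SLC25A22 and SLC25A42 with the higher level (7.99%) and the same 6 carriers as in group B plus SLC25A34 and SLC25A44 with the lower (11.2%). DESeq2 called none of the carriers in group B, where it called 0.241% of genes higher and 0.277% lower, and 3 in group C: SLC25A22 higher (background 0.818%) and SLC25A14 and SLC25A25 lower (1.25%). Both comparisons share the 5 control birds. Of the 34 carriers 14 had a log2 fold change above 0 in group B, against 48.3% of all genes tested, and 17 in group C, against 51%. Their median was −0.03 under β-alanine and 0.03 under L-histidine, beside −0.02 and 0.01 over all genes tested. No carrier had birds that did not overlap between groups B and A (background 0.852% higher and 0.869% lower), and none lay wholly higher in group C (0.978%). With the library totals in place of the scaling, the median of all genes moved to 0.18 in group B and 0.29 in group C, and the carriers at an unadjusted p under 0.05 became 3 under β-alanine, of which 2 were higher, and 12 under L-histidine, of which 10 were higher, against 10.4% and 22.4% of all genes.

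**Figure D1:**
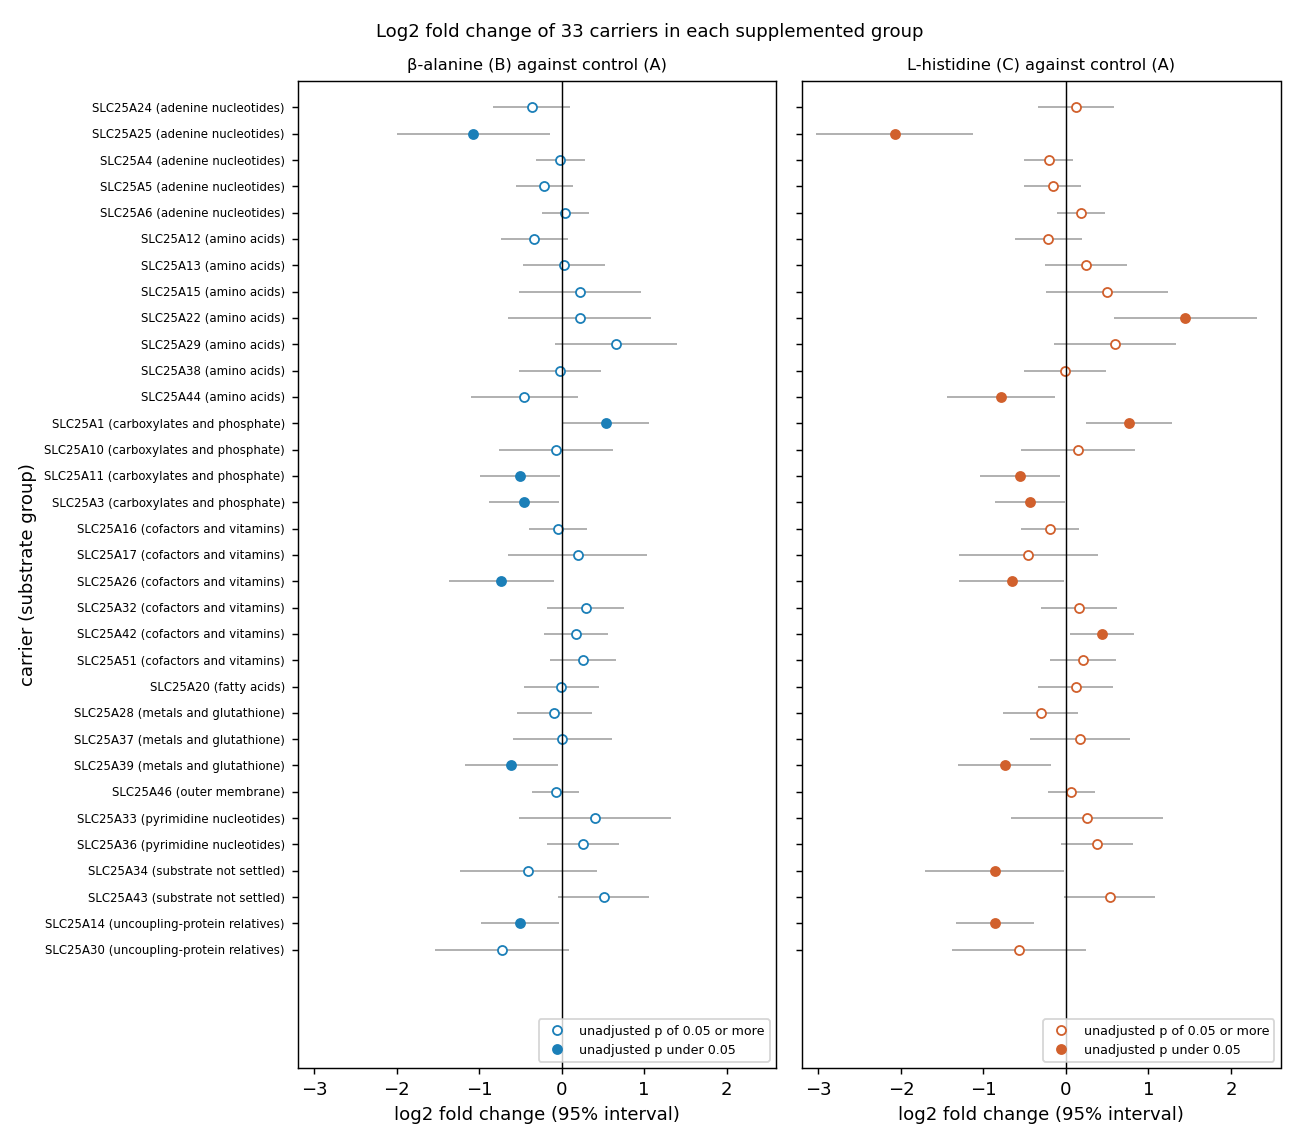
Log2 fold change (horizontal axis, points, with the 95% interval as a line) of 33 of the 34 carriers tested in the β-alanine group (left) and the L-histidine group (right) against the control group, ordered by what they carry; filled points have an unadjusted p under 0.05. SLC25A25 has the lowest value in both panels, −1.07 and −2.07, and SLC25A22 has the highest in the right panel, 1.45.

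The plot of fold changes shows SLC25A25 as the lowest carrier in both groups and SLC25A22 as the highest in the L-histidine group. In the β-alanine group the interval of SLC25A25 overlapped those of the next lowest carriers, SLC25A26 at −0.73 and SLC25A30 at −0.72.

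In control birds the carriers spanned several orders of magnitude. SLC25A4, the ADP/ATP carrier of heart and muscle (chromosome 4, 39355760 to 39358582), was at 1982, 1933, 2166, 2222 and 1713 in A1 to A5, a mean of 2003 ± 202 (SD, n = 5), and made up 69.1% to 76.6% of the summed level of all 35 carriers. No other of these 35 carriers exceeded 270.4 in any control bird. SLC25A11, the oxoglutarate/malate carrier, followed at 186 ± 65.7, then SLC25A3, the phosphate carrier, at 119 ± 35.2 and SLC25A28, mitoferrin 2, which brings iron into mitochondria, at 73.8 ± 26.1. SLC25A39, needed for glutathione uptake, was at 58.0 ± 25.7, SLC25A30 at 49.3 ± 23.9, SLC25A6, a second ADP/ATP carrier, at 45.2 ± 4.22 and SLC25A44, a branched-chain amino acid carrier, at 35.7 ± 17.3. Apart from SLC25A4, each of these overlapped its neighbours in the order between birds. The ADP/ATP carriers SLC25A4 and SLC25A6 varied least among these 8 (coefficient of variation 10.1% and 9.35%), and the other 6 varied by 29.6% to 48.5%. The lowest member was SLC25A47, with 0 to 49 counts per bird, and its 0 in A4 allows up to 3 counts.

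**Figure D2:**
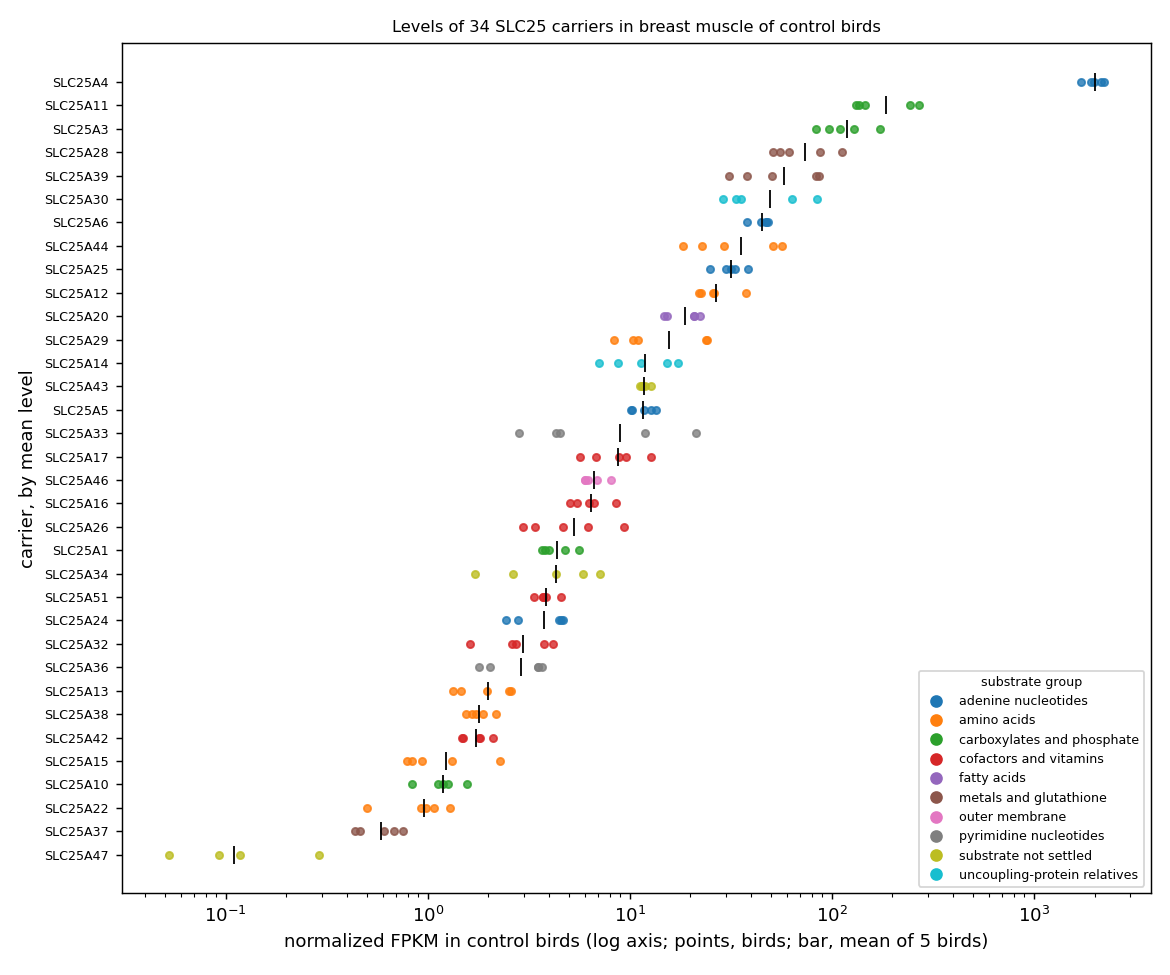
Normalized FPKM (log axis) of 34 of the 35 carriers in the 5 control birds (points; bar, mean of 5 birds), coloured by what they carry; SLC25A47 has 4 points because its count in bird A4 was 0. SLC25A4 lies apart at 1713 to 2222, and the next carrier, SLC25A11, lies at 132 to 270.4.

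The plot of control levels places carriers of energy metabolism (SLC25A4, SLC25A11, SLC25A3) at the top and the carriers of glutamate (SLC25A22), ornithine (SLC25A15), dicarboxylates (SLC25A10) and erythroid iron (SLC25A37) near the bottom, at means of 0.955, 1.24, 1.20 and 0.590.

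SLC25A25, a calcium-dependent ATP-Mg/phosphate carrier on the minus strand of chromosome 17 (5166905 to 5192131, GRCg6a), had the largest difference of the family. Loss of this gene in mice lowers endurance. In group A it was at 33.3, 30.1, 24.9, 31.6 and 38.4 in A1 to A5. In group C it was at 7.11, 6.54, 7.08, 11.6 and 5.30 in C1 to C5. Every L-histidine bird therefore lay below every control bird, the highest of group C at less than the lowest of group A, and SLC25A25 was the 1 carrier of 34 whose groups did not overlap, against 1.05% of all genes tested on the lower side. The mean was 7.53 ± 2.40 against 31.7 ± 4.91 (SD, n = 5 each), 4.21-fold lower, a log2 fold change of −2.07 (SE 0.45, 95% interval −3.03 to −1.12). The edgeR adjusted p was 0.170 in the fit of all 15 birds and 0.00575 in the fit of groups A and C alone, where SLC25A25 was the 1 gene of 11834 called, and the DESeq2 adjusted p was 0.00139. With each bird left out in turn the log2 fold change stayed between −2.28 and −1.97, and without birds A3 and A4 it was −2.17.

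In group B the same gene was at 8.44, 12.6, 17.4, 34.4 and 2.52 in B1 to B5. Of the 5 β-alanine birds 4 lay below every control bird, whereas B4 lay inside the control range. SLC25A25 had the widest spread of the 34 tested carriers within group B, 13.7 times from the lowest to the highest bird against 1.54 times in group A and 2.19 times in group C. The mean was 15.1 ± 12.1, with a log2 fold change of −1.07 against group A (SE 0.44, 95% interval −1.996 to −0.15, edgeR adjusted p = 0.441, DESeq2 adjusted p = 0.273). It was −1.63 without B4 and −0.80 without B5. The gene overlaps LOC107052201, so that, the strand setting of the counting not being given, reads of the 2 genes may not be told apart.

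**Figure D3:**
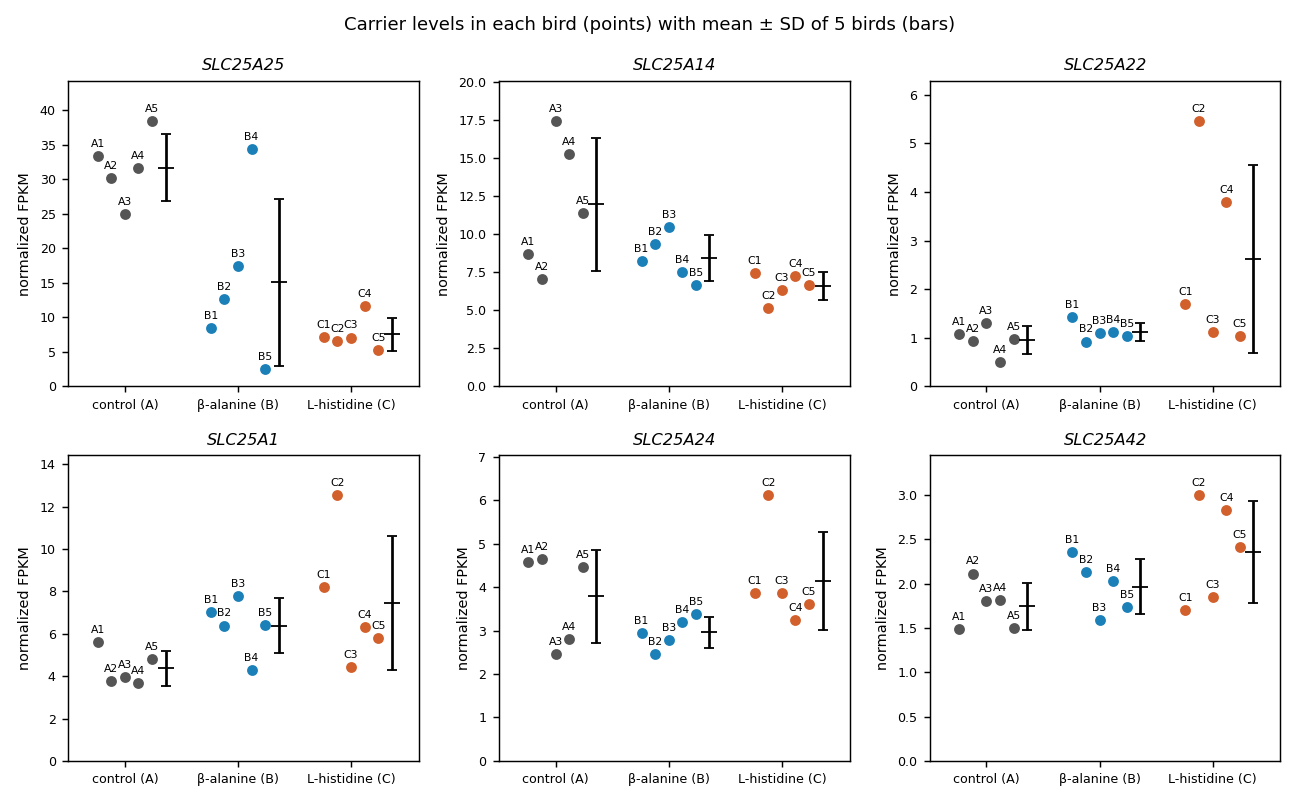
Normalized FPKM (vertical axes, linear from 0) of 6 carriers in each bird (points, labelled by bird) of the control, β-alanine and L-histidine groups, with mean ± SD of 5 birds as bars. For SLC25A25 the L-histidine birds lie at 5.30 to 11.6, all below the control birds at 24.9 to 38.4, and B4 at 34.4 is the 1 supplemented bird in the control range.

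The plot of 6 carriers shows that SLC25A25 separated groups C and A, while group B overlapped both. The other 5 carriers overlapped between all groups. SLC25A24, the other ATP-Mg/phosphate carrier measured (chromosome 8, 1583384 to 1602998), did not share its pattern in group C. In group B both carriers had a lower mean than in group A. SLC25A24 was at 4.57, 4.65, 2.45, 2.80 and 4.46 in A1 to A5, at 2.95, 2.46, 2.78, 3.21 and 3.39 in B1 to B5 and at 3.87, 6.11, 3.87, 3.24 and 3.61 in C1 to C5. Within group A the low values were those of A3 and A4, and within group C the high value was that of C2. The log2 fold change was −0.36 under β-alanine (SE 0.22, adjusted p = 0.545) and 0.12 under L-histidine (SE 0.22, adjusted p = 0.768), and the latter turned to −0.061 without C2 and to −0.14 without A3 and A4. Without A3 and A4 the value in group B was −0.62 (unadjusted p = 0.00703, adjusted p = 0.606). SLC25A23 and SLC25A41, the remaining carriers of this branch in mammals, could not be followed, because no gene of the deposited table bears either name.

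The 3 ADP/ATP carriers were close between groups. SLC25A4 was at 1978, 2316, 1831, 2117 and 1658 in B1 to B5 and at 1858, 1606, 1707, 1730 and 1767 in C1 to C5. These ranges overlapped that of group A, and the log2 fold changes were −0.02 in group B (95% interval −0.32 to 0.28) and −0.21 in group C (−0.51 to 0.09). For SLC25A6 they were 0.04 (−0.24 to 0.33) and 0.18 (−0.11 to 0.47), and for SLC25A5 −0.21 (−0.56 to 0.14) and −0.16 (−0.51 to 0.19). Reads of these similar genes may have been shared among them in the counting.

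Of the 7 amino acid carriers, SLC25A22 and SLC25A44 had an unadjusted p under 0.05 in group C and none did in group B. The shares over all genes tested were 19.2% and 10.6%. SLC25A22, a glutamate carrier on chromosome 5 (16016176 to 16051789), was at 1.07, 0.932, 1.30, 0.502 and 0.976 in A1 to A5. It was at 1.42, 0.924, 1.11, 1.12 and 1.03 in B1 to B5 and at 1.70, 5.46, 1.12, 3.80 and 1.03 in C1 to C5. Birds C2 and C4 stood above all others, C1 was above every control bird, and C3 and C5 lay within the control range. The log2 fold change was 1.45 in group C (SE 0.41, 95% interval 0.58 to 2.31, edgeR adjusted p = 0.170, DESeq2 adjusted p = 0.0389) and 0.22 in group B (SE 0.41, adjusted p = 0.858). Without C2 the value in group C was 0.99. C2 is the bird with high TNNT1 and MYL3. Of 8 listed slow fibre genes tested, 6 were higher and 1 lower in group C at an unadjusted p under 0.05. That fit included C2, and TNNT1 and MYL3 were nearly absent from the other birds. The count therefore cannot be read as a shift shared by the birds of group C. The shares over all genes tested were 7.99% and 11.2%. Their summed level overlapped between groups, at 6122 to 11147 under L-histidine, 6381 to 10488 under β-alanine and 7327 to 19159 in controls. The highest sum was that of A4, and the count did not reflect a higher sum in group C. Bird C4, with the next highest SLC25A22, had TNNT1 at 2.18 and MYL3 at 1.08. The part of slow fibres, or of the immune and smooth muscle cells whose markers were also highest in C2, in the SLC25A22 difference was not tested.

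SLC25A44, a carrier of branched-chain amino acids on chromosome 23 (6055345 to 6065023), was at 22.7, 18.3, 56.9, 51.3 and 29.5 in A1 to A5. It was at 23.1, 39.6, 25.3, 22.8 and 19.7 in B1 to B5 and at 21.0, 11.4, 26.7, 25.9 and 18.5 in C1 to C5. A3 and A4 held the 2 highest values of all 15 birds, and the other 3 control birds overlapped group C. The log2 fold change in group C was −0.79 (SE 0.31, adjusted p = 0.1998), and −0.18 without A3 and A4. The 5 other amino acid carriers had log2 fold changes from −0.33 to 0.66 in group B and from −0.21 to 0.59 in group C, none with an unadjusted p under 0.05. The highest was that of SLC25A29, a carrier of basic amino acids, whose control birds split into 24.2 and 23.9 in A1 and A5 and 8.38 to 11.0 in the rest. SLC25A12, the aspartate/glutamate carrier of the malate-aspartate shuttle that muscle expresses most, was at 26.8 ± 6.42 in controls, 21.3 ± 4.29 under β-alanine and 23.2 ± 4.13 under L-histidine.

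Among the 4 carriers of carboxylates and phosphate, SLC25A1 stood higher and SLC25A11 and SLC25A3 lower in both supplemented groups at an unadjusted p under 0.05. The shares over all genes tested were 4.47% in group B and 7.99% in group C on the higher side. On the lower side they were 6.17% and 11.2%. Both groups were set against the same control birds. SLC25A1, the citrate carrier that exports citrate for fatty acid synthesis (chromosome 15, 320879 to 334477), was at 5.60, 3.79, 3.98, 3.68 and 4.81 in A1 to A5. It was at 7.01, 6.39, 7.80, 4.31 and 6.40 in B1 to B5 and at 8.203, 12.5, 4.43, 6.32 and 5.80 in C1 to C5. All supplemented birds except B4 and C3 lay above every control bird. The log2 fold change was 0.54 in group B (SE 0.25, edgeR adjusted p = 0.452) and 0.77 in group C (SE 0.25, edgeR adjusted p = 0.174, DESeq2 adjusted p = 0.0811). In group C it was 0.50 without C2 and 0.66 without A3 and A4.

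SLC25A11, which exchanges oxoglutarate for malate and could not be given a chromosome name here, was at 132, 137, 243, 270.4 and 147 in A1 to A5. It was at 129, 133, 144, 124 and 127 in B1 to B5 and at 82.3, 141, 157, 151 and 101 in C1 to C5. A3 and A4 were the 2 highest birds, and A1, A2 and A5 fell among the supplemented birds. The log2 fold changes were −0.50 in group B (SE 0.23, adjusted p = 0.452) and −0.56 in group C (SE 0.23, adjusted p = 0.214), and −0.07 and −0.13 without A3 and A4. SLC25A3, the phosphate carrier (chromosome 1, 46695051 to 46705814), was at 83.9, 110.0, 129, 174 and 96.5 in A1 to A5, at 73.2 to 101 in group B and at 74.4 to 117 in group C. Its log2 fold changes of −0.45 in group B and −0.44 in group C (SE 0.20 each, adjusted p = 0.446 and 0.245) were −0.15 and −0.14 without A3 and A4. SLC25A10, the dicarboxylate carrier, was low and close between groups, at −0.07 (95% interval −0.76 to 0.62) and 0.15 (−0.54 to 0.84).

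The 2 relatives of the uncoupling proteins had lower means in both supplemented groups. SLC25A14, first described in brain and lying on chromosome 4 (1557649 to 1564536), was at 8.71, 7.03, 17.4, 15.3 and 11.4 in A1 to A5. It was at 8.23, 9.35, 10.5, 7.49 and 6.66 in B1 to B5 and at 7.46, 5.15, 6.36, 7.24 and 6.68 in C1 to C5. Only A2 among the control birds lay below the highest L-histidine bird, and the highest controls were again A3 and A4. The log2 fold change was −0.86 in group C (SE 0.23, 95% interval −1.33 to −0.38, edgeR adjusted p = 0.170, DESeq2 adjusted p = 0.0283) and −0.50 in group B (SE 0.22, edgeR adjusted p = 0.449). Without A3 and A4 it was −0.45 (unadjusted p = 0.0326) in group C and −0.09 in group B. With C2 left out as well, the unadjusted p in group C was no longer under 0.05. SLC25A30, first described in kidney, ranged from 29.0 to 84.4 in controls, 13.9 to 40.3 under β-alanine and 16.9 to 52.4 under L-histidine, with log2 fold changes of −0.72 (SE 0.39, adjusted p = 0.504) and −0.57 (SE 0.38, adjusted p = 0.415). UCP3, the uncoupling protein of muscle, was not among the 35 carriers, because the deposited table does not name it as SLC25A and a number. Its level was 113.7 to 514 in controls, 368 to 889.7 under β-alanine and 241 to 703 under L-histidine.

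Of the 7 carriers of cofactors and vitamins, SLC25A26 and SLC25A42 had an unadjusted p under 0.05 in group C and SLC25A26 alone did in group B. The shares over all genes tested were 19.2% and 10.6%. SLC25A26, the S-adenosylmethionine carrier (chromosome 12, 14761901 to 14845739), was at 2.97, 3.39, 6.21, 9.40 and 4.66 in A1 to A5, at 1.84 to 4.04 in group B and at 2.44 to 4.58 in group C. A3, A4 and A5 lay above every supplemented bird. Its log2 fold changes of −0.73 and −0.66 (SE 0.30 each, adjusted p = 0.443 and 0.249) were −0.20 and −0.13 without A3 and A4, and it overlaps LRIG1. SLC25A42, a coenzyme A carrier (chromosome 28, 3737191 to 3755077), was at 1.48, 2.11, 1.80, 1.82 and 1.49 in A1 to A5, at 1.59 to 2.36 in group B and at 1.70, 2.996, 1.84, 2.83 and 2.41 in C1 to C5. C2, C4 and C5 lay above every control bird, and the log2 fold change was 0.44 (SE 0.18, adjusted p = 0.221). It was 0.48 without A3 and A4 and 0.33 without C2, where the unadjusted p was no longer under 0.05. Of the others, SLC25A32 for folate or flavin, SLC25A51 for NAD+, SLC25A16 and the peroxisomal SLC25A17 ran from −0.04 to 0.29 in group B and from −0.45 to 0.21 in group C.

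SLC25A39 is required for glutathione import in mammalian cells and lies on chromosome 27 (5403032 to 5407822). Of 3 carriers of metals and glutathione it was the 1 with an unadjusted p under 0.05, in groups B and C (10.6% and 19.2% of all genes tested). It was at 38.1, 31.2, 86.6, 83.4 and 50.6 in A1 to A5. It was at 29.8, 46.1, 48.3, 34.4 and 31.2 in B1 to B5 and at 32.7, 25.5, 42.7, 41.2 and 31.0 in C1 to C5. A3, A4 and A5 exceeded every supplemented bird, with A3 and A4 well above A5. The log2 fold changes were −0.61 in group B (SE 0.27, edgeR adjusted p = 0.445) and −0.74 in group C (SE 0.27, edgeR adjusted p = 0.183, DESeq2 adjusted p = 0.0983), and −0.07 and −0.20 without A3 and A4. SLC25A28 and SLC25A37, the mitoferrins, had log2 fold changes of −0.09 and 0.01 in group B and −0.30 and 0.17 in group C.

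**Figure D4:**
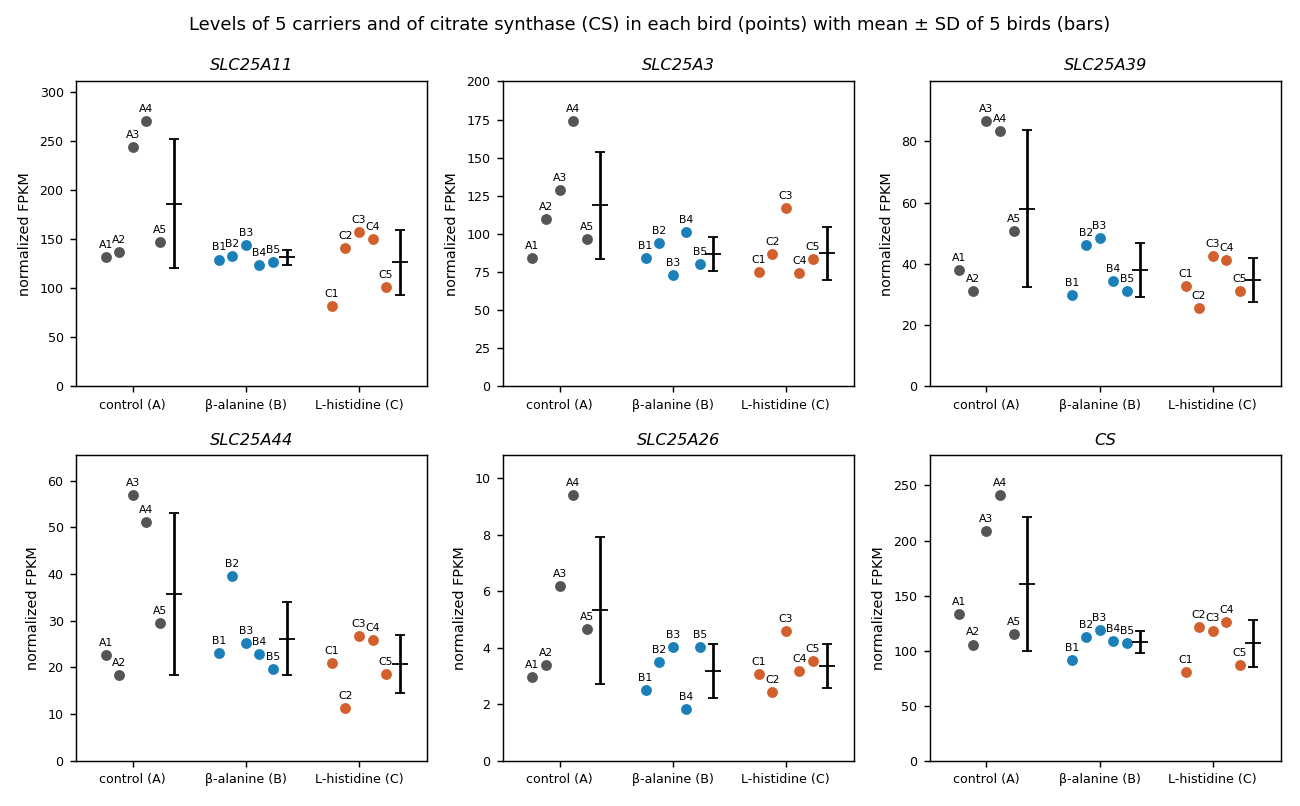
Normalized FPKM (vertical axes, linear from 0) of 5 carriers and of CS, a mitochondrial enzyme gene that is no carrier, in each bird (points, labelled by bird), with mean ± SD of 5 birds as bars. A3 and A4 are the highest 2 birds for SLC25A11, SLC25A3, SLC25A39, SLC25A44, SLC25A26 and CS, with CS at 209 and 241 against 80.7 to 133 in the other birds.

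The plot of carriers beside CS shows carriers chosen because A3 and A4 were their highest birds. Over all 34 carriers A3 or A4 was the highest control bird for 19, against 47.8% of all genes tested, C2 the highest L-histidine bird for 10, against 26.6%, and B2 the highest β-alanine bird for 8, against 25.2%. The 14 mitochondrial enzyme genes tested, which include CS, IDH2, MDH2 and SDHB, had a summed level of 2771 in A3, 3946 in A4 and 1765 to 1806 in the other controls, 1572 to 1947 under β-alanine and 1332 to 1917 under L-histidine, and 5 were lower in group B and 6 in group C at an unadjusted p under 0.05, with median log2 fold changes of −0.38 and −0.43, against 6.17% and 11.2% of all genes tested on the lower side. Without A3 and A4 none of the 14 was lower in either group at that threshold, and the medians were −0.01 and −0.08. Without A3 and A4, 2 carriers had an unadjusted p under 0.05 in group B, SLC25A24 and SLC25A25, and 6 in group C, SLC25A1, SLC25A14, SLC25A15, SLC25A22, SLC25A25 and SLC25A42, against 6.43% of genes in each. Without A3, A4 and C2 these were 3 and 3, against 7.59% and 5.23% of genes, and SLC25A25 was among them in both groups, at −1.17 and −2.12. The part that the mitochondrial content, RNA state or mapping rate of A3 and A4 had in these differences was not tested.

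**Figure D5:**
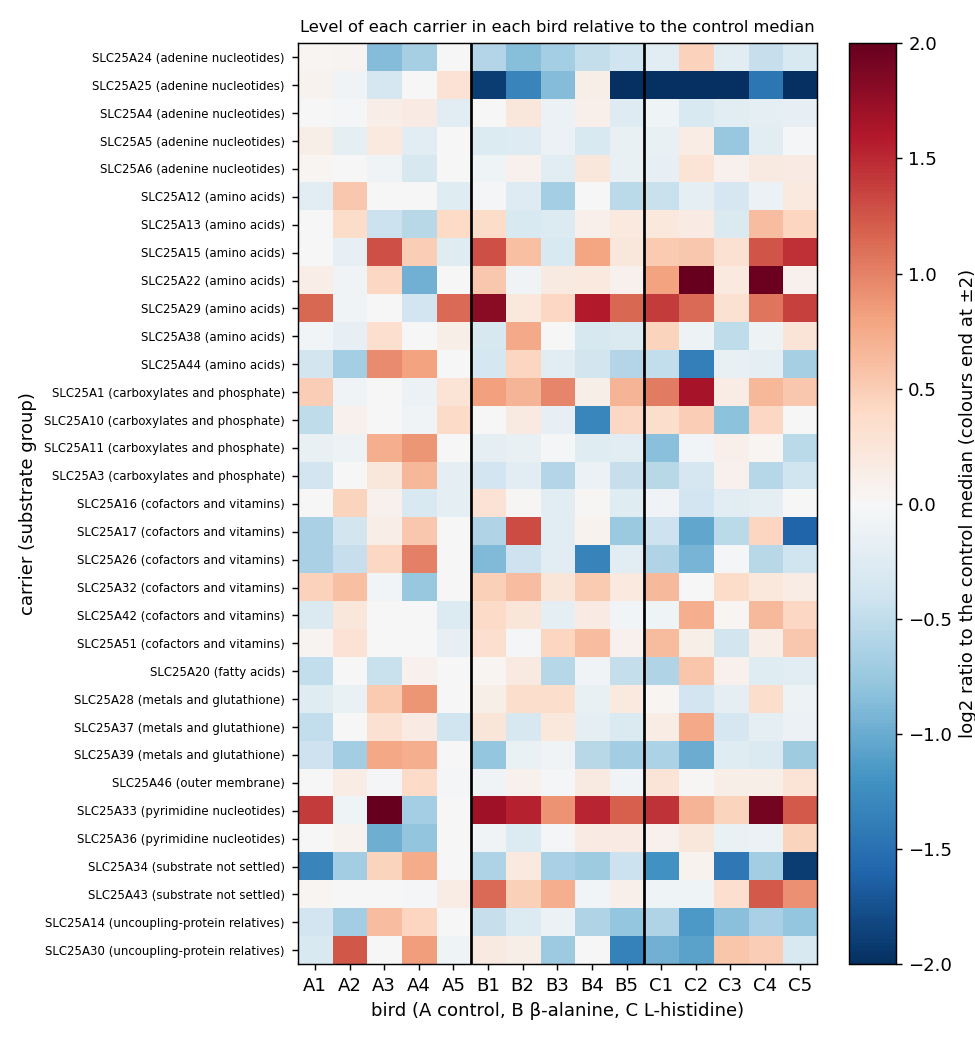
Log2 ratio of each carrier's normalized FPKM in each bird (columns) to the median of the 5 control birds (rows, 33 of the 34 carriers tested, by what they carry; red above, blue below, colours end at ±2). The columns of A3 and A4 are red for SLC25A11, SLC25A39, SLC25A44, SLC25A28 and SLC25A14, and the row of SLC25A25 is blue in all L-histidine birds and in all β-alanine birds but B4.

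The map of carriers by bird also shows carriers with a wide spread within groups. SLC25A33, a pyrimidine nucleotide carrier, ran from 2.84 to 21.3 within group A, 8.44 to 14.7 within group B and 6.16 to 17.1 within group C, with log2 fold changes of 0.40 and 0.25. SLC25A43, whose substrate is not settled, lay at 11.2 to 12.8 in group A, the narrowest spread of the 35 carriers in these birds, and at 25.4, 16.0, 19.0, 11.2 and 12.3 in B1 to B5 and 10.9, 10.9, 14.5, 27.1 and 21.8 in C1 to C5. In each supplemented group 3 birds exceeded every control bird, and the log2 fold changes of 0.51 and 0.53 (SE 0.26 each) had adjusted p values of 0.495 and 0.276. It lies 941 bases from SLC25A5 on the same strand of chromosome 4. SLC25A34, another carrier without a settled substrate, was at 1.71 to 7.15 in group A and 1.16 to 4.49 in group C, a log2 fold change of −0.86 (SE 0.40, adjusted p = 0.252) that was −0.29 without A3 and A4. SLC25A20, the carnitine/acylcarnitine carrier through which fatty acids enter the matrix, differed by −0.00 in group B (95% interval −0.46 to 0.45) and 0.12 in group C (−0.33 to 0.57), and SLC25A46, an outer membrane protein of mitochondrial dynamics, by −0.07 (−0.36 to 0.22) and 0.07 (−0.22 to 0.35).

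Groups C and B, which differ in the supplement, were compared in the same fit. No gene passed the adjusted threshold in edgeR or in DESeq2 (0% of genes in both), and 3 of 34 carriers had an unadjusted p under 0.05, against 4.02% of all genes tested. These were SLC25A22 at 1.23 (SE 0.40, 95% interval 0.38 to 2.08) and SLC25A24 at 0.49 (SE 0.22, 95% interval 0.02 to 0.95) with the higher level in group C, and SLC25A25 at −1.002 (SE 0.44, 95% interval −1.93 to −0.08) with the lower. All 3 had an edgeR adjusted p of 0.983, and 2.51% of all genes tested were higher and 1.51% lower in group C at the same unadjusted threshold. The value of SLC25A25 was −0.44 without B4, the β-alanine bird in the control range, and that of SLC25A22 was 0.77 without C2. Without C2, SLC25A24 was at 0.30 and SLC25A25 at −0.96, both then above the unadjusted threshold, and 2 carriers were below it, SLC25A22 and SLC25A34, against 2.70% of genes. Of the 34 carriers 19 had a value above 0, against 51.4% of all genes tested, and no carrier had groups that did not overlap (background 0.439% higher and 0.278% lower). The median over the 34 carriers was 0.02, beside 0.01 over all genes tested.

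Proteins that work with the carriers were counted from lists of genes. Of 9 tested genes for the import of carriers into the inner membrane, 1 was lower in group B at an unadjusted p under 0.05 (AGK) and 4 in group C (AGK, TIMM8A, TIMM10 and TIMM13, a kinase of the import complex and small chaperones of the intermembrane space), with medians of −0.14 and −0.40 and none higher, against 6.17% and 11.2% of all genes tested on the lower side. Their summed level was 237 in A3 and 299.9 in A4, against 151 to 174 in the other controls. Of 5 genes of the pyruvate carrier and the outer membrane channels, VDAC3 was lower in group B and MPC2 and VDAC1 in group C, with medians of −0.30 and −0.32. The shares over all genes tested on the lower side were again 6.17% and 11.2%. Of 9 genes of mitochondrial calcium entry and exit, none differed in group B, against 10.6% of all genes tested. SMDT1, a subunit of the calcium uniporter, was lower in group C at −0.62 (SE 0.23, adjusted p = 0.183). This 1 of 9 is near the 11.2% of all genes tested. Of 9 tested regulators of mitochondrial genes, PPARGC1A was higher in group B at 1.65 (SE 0.55, adjusted p = 0.424) and PPARA in group C at 1.09 (SE 0.32, adjusted p = 0.170). On the higher side the shares over all genes tested were 4.47% and 7.99%. None of these passed the edgeR threshold, and DESeq2 called 1 of the regulators, PPARA in group C at 1.08 (SE 0.32, DESeq2 adjusted p = 0.0473, background 0.818% higher). Without A3 and A4 no gene of the import, pyruvate and channel, or calcium lists was lower in either group at an unadjusted p under 0.05 (background 3.09% and 2.70%), and 2 import genes were higher in group B (3.34%). PPARGC1A was at 4.75 in B1 and at 0.191 to 2.18 in the other 14 birds.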

How the data were processed

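Breast muscle RNA of 15 female birds was sequenced as 1 poly(A)-selected library per bird. Per the study's methods and the submitters' processing notes, the authors removed adapters and low-quality ends (cutadapt 1.9.1), mapped the reads on GRCg6a (HISAT2 2.0.1) and obtained gene counts with HTSeq 0.6.1. The deposited table holds these counts and the FPKM that the authors made from them, with exonic gene lengths. The strand setting and the treatment of reads with several hits are not given in the sources used here. Counts covered 10620229 to 15381547 fragments per bird.

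The 11858 genes whose deposited FPKM averaged 0.2 or more entered edgeR 4.0.16 in R 4.3.3 (quasi-likelihood, relative log expression scaling, 3 groups in 1 fit, 12 residual degrees of freedom, Benjamini-Hochberg over all genes; call at adjusted p under 0.05 and a fold of at least 1.5). DESeq2 1.42.0 was the alternative model. Normalized FPKM were recomputed from the counts. The test was also run on simulated counts, and that outcome is not reported here. Alternatives covered scaling, filters, model, samples in the fit, replicate block and each bird left out, and those with birds A3, A4 and C2 left out together, with a gene length trend removed and with another DESeq2 filtering were chosen after seeing the data. The members and lists were chosen with earlier results of these data known. Named carriers were those at an unadjusted p under 0.05 in a comparison (at most 12 each), those DESeq2 called, the ATP-Mg/phosphate carriers and the 8 highest in control birds. SLC25A14 and SLC25A25 were also named because the supplementary tables of the study list them. Others named for their values were chosen after these were seen. Cell type marker lists were counted, and values of fast muscle, slow fibre, immune, and smooth muscle and pericyte genes are given above. Among the lists not given, 3 of 6 endothelial genes tested were higher in group C and 0 lower (edgeR, unadjusted p under 0.05). The share over all genes tested on the higher side was 7.99%. In group B 3 of 7 fat cell genes tested were lower and 0 higher, against 6.17% on the lower side. Their part in the carrier differences was not tested. Birds came from separate cages. Coordinates are 1-based in GRCg6a from the deposited table; chromosome names came from genes shared with a RefSeq table of a later build, in which 33 of the 35 carriers matched by symbol. Carriers overlapping another gene, whose reads may be shared, were SLC25A6, SLC25A12, SLC25A25, SLC25A26, SLC25A32 and SLC25A51. A further member counted among the carriers is not reported here by name.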

Additional observations from a re-analysis of the deposited data

Results flagged for a closer look

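In 7 of 105 groups of 5 birds, 1 per carrier and group, a single bird lay far from the other 4; chance alone gives about 1 in 20 such groups. In the β-alanine group the bird was B2 in all 4 cases, with SLC25A17 at 21.8 (next bird 9.32), SLC25A34 at 4.91 (next 3.19), SLC25A38 at 2.92 (next 1.75) and SLC25A44 at 39.6 (next 25.3) normalized FPKM. B2 was the highest β-alanine bird for 8 of 34 carriers, against 25.2% of all genes tested. In the L-histidine group C2 had SLC25A24 at 6.11 (next 3.87) and C4 had SLC25A25 at 11.6 (next 7.11), the latter still below every control bird. C2 was the highest L-histidine bird for 10 of 34 carriers, against 26.6% of all genes tested. In the control group A2 had SLC25A12 at 37.8 (next 26.1).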

How the results depend on the processing

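The calls depended on the model and on the birds. In group C against group A, edgeR on all birds called 0 genes, DESeq2 called 225 genes with 3 carriers, DESeq2 with its filtering set for 0.1 called 225 with 2 (SLC25A22 was then filtered out), and edgeR on groups A and C alone called 1 gene, the 1 carrier SLC25A25, with 7 carriers at an unadjusted p under 0.05 (15.4% of genes). In group B DESeq2 called 58 genes, 56 with the other filtering, and none was a carrier. With library totals, 3 carriers had an unadjusted p under 0.05 in group B (10.4% of genes), and the medians of the carriers moved to 0.18 in group B and 0.33 in group C. Without A3 and A4 the count at an unadjusted p under 0.05 was 2 in group B and 6 in group C (6.43% of genes each), and without A3, A4 and C2 it was 3 and 3 (7.59% and 5.23%); SLC25A24 in group C turned to −0.14 and −0.32 in these settings and, without C2, to −0.061. With each bird left out in turn, the count ran from 0 (without B1, 7.15% of genes) to 9 (without A1, 13.4%) in group B, from 6 (without A4, 10.8%, or C5, 14.3%) to 12 (without A2, 24.2%) in group C and from 1 (without B3, 3.60%) to 4 (without C4, 4.39%) between groups C and B, genes called ran from 0 to 1 in group B and 0 to 2 in group C, none a carrier, and SLC25A24 in group C from −0.061 to 0.21. The cause was not tested. TMM scaling, no filter, filterByExpr and removal of the length trend gave 0 calls and the same directions for the named carriers. Removal of the length trend took SLC25A11 and SLC25A14 above an unadjusted p of 0.05 in group B, where 6 carriers were below it (11.1% of genes), and SLC25A11, SLC25A26, SLC25A34 and SLC25A42 in group C, where 11 were (16.3%).

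The replicate numbers paired the birds weakly at most. Of 15 pairs with a shared number, 5 had deviations correlated above 0.1, over a range of −0.25 to 0.24. In 4 of the 15 pairs the number's own partner correlated best: A1 with B1, A3 with B3, A5 with B5 and A3 with C3. With the replicate block the count at an unadjusted p under 0.05 was 6 in group B (10.3% of genes), 10 in group C (18.7%) and 1 between groups C and B (3.44%). In SLC25A47, tested without the filter, the log2 fold change was 0.59 in group B and 1.20 in group C (edgeR adjusted p = 0.777 and 0.391), at 0 to 49 counts per bird; depth limits that carrier.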
